A study of Mus musculus with 12 samples.

Results

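The RNA of 6 genes that encode potassium or proton channels of microglia was followed in sorted microglia from 4 groups of mice. The members were the rows of the count files whose symbol was *Kcnk13*, *Kcnk6*, *Kcna3*, *Kcnn4*, *Kcnj2* or *Hvcn1*, which gave 6 of 55401 gene identifiers, 1 identifier for each symbol. WT mice were CX3CR1wt/wt HDAC3loxp/loxp and miKO mice were CX3CR1CreER/wt HDAC3loxp/loxp, so that both genotypes carried the floxed *Hdac3* alleles and only miKO mice carried the tamoxifen-inducible CreER in place of 1 *Cx3cr1* allele. All mice were males that received tamoxifen for 5 days at 6 to 8 weeks of age, at least a month before surgery. In WT-tFCI and miKO-tFCI the left middle cerebral artery was occluded for 60 min (transient focal cerebral ischemia, tFCI), and WT-Sham and miKO-Sham underwent the sham operation. CD45int CD11b+ cells were sorted 3 days after tFCI, and each library pooled the cells of 3 to 4 hemispheres. Each group had 3 libraries, and the labels put replicate 1 of every group in batch 1 and the others in batch 2, without saying which step the batch refers to. There was no control for the loss of 1 *Cx3cr1* allele or for CreER alone, so that their effect and that of *Hdac3* deletion cannot be told apart.

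Potassium channels set the resting membrane potential of microglia, which shapes calcium entry, ramification, migration and cytokine release. Potassium efflux is also a known trigger of the NLRP3 inflammasome, which matures interleukin-1β. The voltage-gated proton channel lets protons leave the cell and so compensates the charge that the NADPH oxidase moves during the respiratory burst. *Kcnk13* (THIK-1) and *Kcnk6* (TWIK-2) encode two-pore-domain background channels, *Kcna3* the voltage-gated Kv1.3, *Kcnn4* the calcium-activated KCa3.1, *Kcnj2* the inward rectifier Kir2.1, and *Hvcn1* the proton channel Hv1.

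Potassium channels share the selectivity filter, a short signature that lines the pore, and stretches that encode it are shown for 4 members because they set potassium channels apart from the proton channel. Each stretch below holds 39 coding bases (5′ to 3′ on the coding strand, GENCODE M21, GRCm38), with the 5 codons of the signature (threonine, valine or isoleucine, glycine, tyrosine or phenylalanine, glycine) in capitals. Codons are counted from the start codon. The stretches shown lie at codons 110 to 114 of *Kcnk13*, 106 to 110 of *Kcnk6*, 397 to 401 of *Kcna3* and 142 to 146 of *Kcnj2*, and are not a full count of matches in the potassium channels. The signature was found 0 times in the 269 codons of *Hvcn1*. The stretches of *Kcnk13* and *Kcnk6* are each interrupted in the genome by an intron.
Kcnk13, chr12:99966262-100061021 (+): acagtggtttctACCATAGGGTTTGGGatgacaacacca
Kcnk6, chr7:29225848-29232180 (-): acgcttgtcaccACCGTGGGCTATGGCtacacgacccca
Kcna3, chr3:107037599-107037637 (+): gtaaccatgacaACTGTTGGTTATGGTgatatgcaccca
Kcnj2, chr11:111072195-111072233 (+): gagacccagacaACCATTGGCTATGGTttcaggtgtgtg

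Reads on genes numbered 7697864 to 9452222 per library, which was 30.7% to 38.5% of the counted reads. *Hdac3* was lower in every miKO library than in every WT library of the same surgery (log2 fold change -0.81 after Sham, adjusted p = 0.0028, and -0.71 after tFCI, adjusted p = 0.0127, edgeR quasi-likelihood test). All 14 microglia markers were counted in every library. Their summed level was 52108 to 55433 counts per 1000000 reads on genes (CPM) in the 6 Sham libraries, and 41709 to 47339 CPM in WT-tFCI. Replicates 2 and 3 of miKO-tFCI had 37029 and 38458 CPM, whereas miKO-tFCI replicate 1 stood apart at 24622 CPM. The counts of miKO-Sham replicates 1 and 2, which the labels put in different batches, were the most alike within any group. Their chi-square per degree of freedom was 2.82, against 3.65 to 76.6, and they still differed by more than sampling noise. In each other group the closest pair was replicates 2 and 3 (5.10 in WT-Sham, 3.65 in WT-tFCI and 12.9 in miKO-tFCI). Replicate 3 of miKO-Sham stood at 37.8 and 40.8 from replicates 1 and 2. Whether the batch labels of miKO-Sham hold was not tested, and the batch term and the values within batches rest on them. If replicates 1 and 2 came from the same cells, miKO-Sham held 2 independent samples. Results below that change when both are summed are named.

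The 6 genes were first ranked by their level per exon length, in reads per kilobase of exon, scaled to library size as CPM were (RPKM). *Hvcn1* had the highest mean over the 12 libraries, at 63.5 RPKM, followed by *Kcnk6* at 34.6, *Kcnk13* at 27.0, *Kcna3* at 5.07, *Kcnj2* at 2.77 and *Kcnn4* at 1.42 RPKM. *Hvcn1* lay above *Kcnk6*, and *Kcnk13* above *Kcna3*, in 12 of 12 libraries. The order was less even for *Kcnk6* over *Kcnk13* (9 of 12 libraries), *Kcna3* over *Kcnj2* (10 of 12) and *Kcnj2* over *Kcnn4* (10 of 12), so that neighbours of these 3 pairs did not separate in every library. In miKO-tFCI the group means of *Kcnk13* (25.9 ± 10.1 RPKM, SD, n = 3) and *Kcnk6* (22.9 ± 10.3 RPKM) changed places, within their spread. *Kcnn4*, the lowest of the 6 by group mean in both Sham groups, reached 2.89 ± 2.18 RPKM in miKO-tFCI, where *Kcnj2* was at 1.57 ± 0.467 RPKM.

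**Figure D1:**
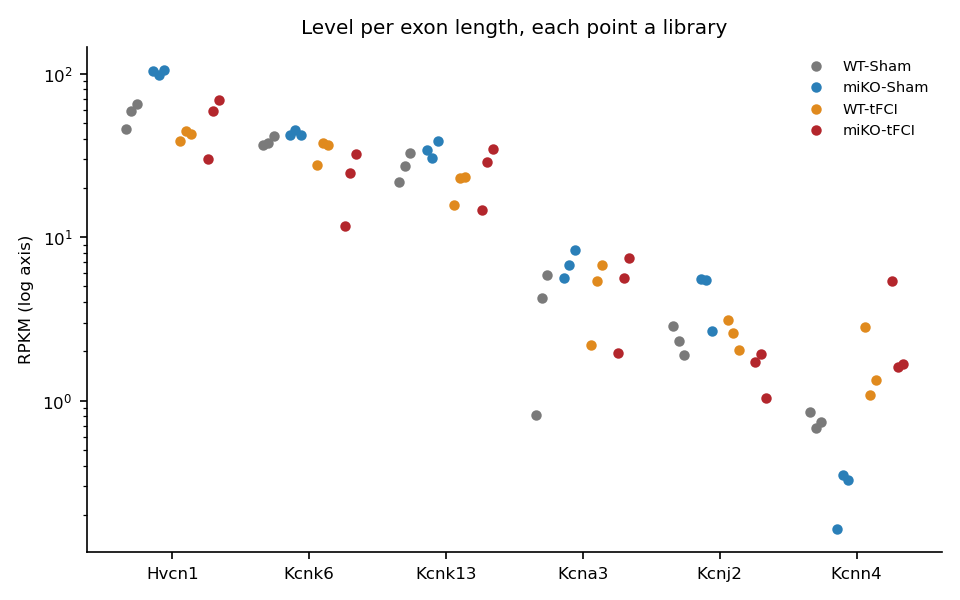
Level of the 6 channel genes per exon length (RPKM, log axis), with each point a library, colored by group. *Hvcn1*, *Kcnk6* and *Kcnk13* lie between 11.8 and 105 RPKM, and the other 3 genes between 0.163 and 8.28 RPKM.

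All 6 members passed the filter on low counts and were tested in 1 fit of 16451 genes. Calls needed an adjusted p (Benjamini-Hochberg) below 0.05 and an absolute log2 fold change above 0.58, or the adjusted p alone for the interaction. In WT-tFCI vs. WT-Sham 1 member was higher (*Kcnn4*, where 20.9% of all genes tested were called higher) and 0 were lower (11.7% of all genes), with *Hvcn1* at an unadjusted p of 0.0399. In miKO-tFCI vs. miKO-Sham 1 member was higher (*Kcnn4*, against 21.9% of all genes) and 3 were lower (*Kcnk6*, *Kcnj2* and *Hvcn1*, against 13.9%). In miKO-Sham vs. WT-Sham 3 were higher (*Kcna3*, *Kcnj2* and *Hvcn1*, against 8.58%) and 0 were lower (6.8%), with *Kcnn4* at an unadjusted p of 0.0097. In miKO-tFCI vs. WT-tFCI, 0 were called, against 4.08% of all genes higher and 4.71% lower. *Kcnk6* and *Kcnj2* had unadjusted p-values under 0.05 in that comparison, and either was called under some alternatives, given with their values below. In the interaction of genotype and surgery, 1 member was called, with a lower value (*Kcnj2*, against 2.57% of all genes lower and 1.25% higher). With 6 genes, these counts describe the members and are no test of them as a set. The comparisons share libraries, each group entering 2 of them, and are not independent of each other.

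**Figure D2:**
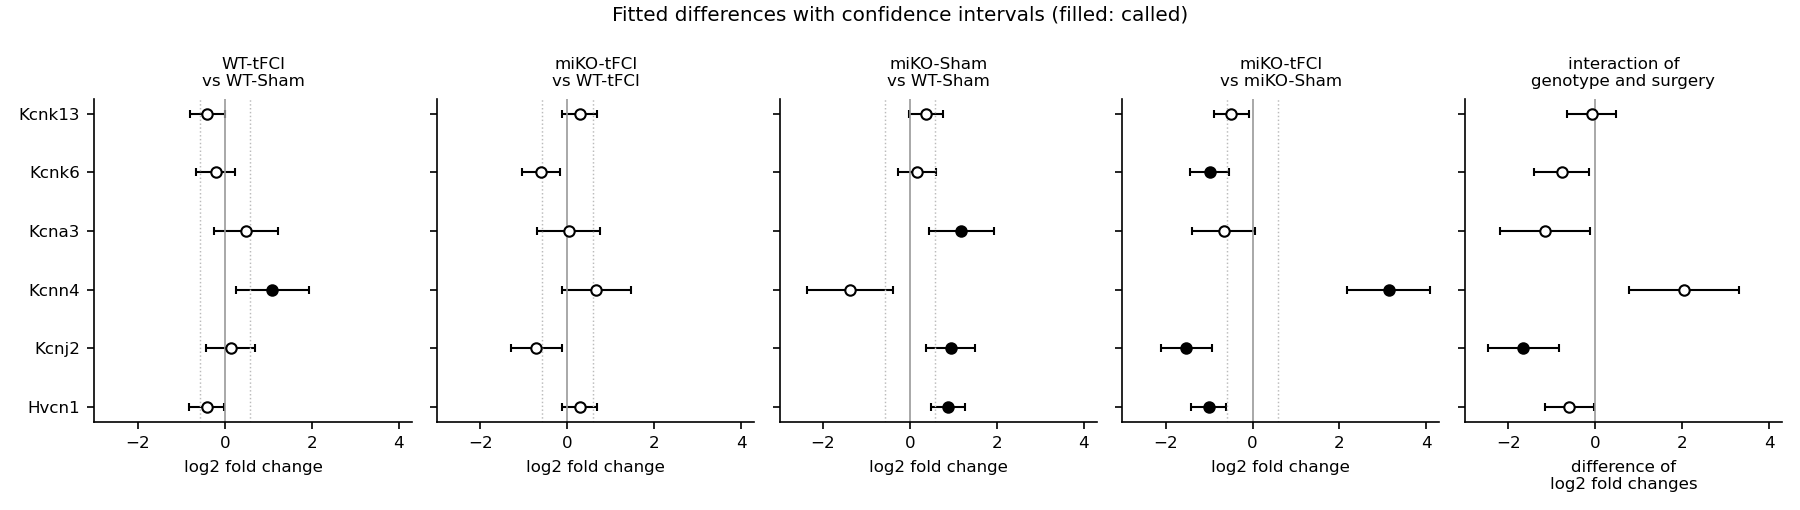
Fitted log2 fold changes of the 6 genes in the 4 comparisons between groups and, in the last panel, the difference between the genotype effects after tFCI and after Sham. Bars are 95% confidence intervals, filled points were called and dotted lines in the first 4 panels mark an absolute value of 0.58. The largest value is that of *Kcnn4* in miKO-tFCI vs. miKO-Sham, at 3.13.

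Among the background channels, *Kcnk13* (ENSMUSG00000045404, chr12:99964499-100062682, + strand) encodes THIK-1, the channel that carries much of the resting potassium conductance of ramified microglia. Replicates 1, 2 and 3 had 67.9, 84.8 and 101 CPM in WT-Sham, against 106, 94.3 and 121 CPM in miKO-Sham. After tFCI they had 49.0, 71.2 and 72.9 CPM in WT, against 45.5, 89.1 and 107 CPM in miKO. In both tFCI groups the batch 1 library was the lowest, and the groups overlapped in all 4 comparisons. *Kcnk13* was not called in any comparison. Its log2 fold change was -0.40 ± 0.19 (SE) in WT-tFCI vs. WT-Sham (adjusted p = 0.105), -0.48 ± 0.19 in miKO-tFCI vs. miKO-Sham (adjusted p = 0.0512), 0.37 ± 0.19 in miKO-Sham vs. WT-Sham (adjusted p = 0.199) and 0.29 ± 0.19 in miKO-tFCI vs. WT-tFCI (adjusted p = 0.359). In miKO-tFCI vs. miKO-Sham the value rested mainly on batch 1, where the difference was -1.21, against -0.13 in batch 2, and it was called without miKO-Sham replicate 2 (-0.67, adjusted p = 0.0116) or without miKO-tFCI replicate 3 (-0.69, adjusted p = 0.0149). It was -0.26 without miKO-Sham replicate 1 (adjusted p = 0.316) and -0.29 without miKO-tFCI replicate 1 (adjusted p = 0.240).

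*Kcnk6* (ENSMUSG00000046410, chr7:29221926-29232515, - strand) encodes TWIK-2, a potassium efflux channel of macrophages linked to NLRP3 activation. In Sham it was 153, 156 and 173 CPM in WT and 176, 188 and 174 CPM in miKO. After tFCI it was 114, 155 and 152 CPM in WT and 48.8, 102 and 134 CPM in miKO. All 3 miKO-tFCI libraries lay below every Sham library of either genotype, with the batch 1 library lowest. *Kcnk6* fell by 0.99 ± 0.21 on the log2 scale from miKO-Sham to miKO-tFCI (adjusted p = 0.0018), by 1.84 within batch 1 and by 0.63 within batch 2. The value in WT was -0.21 ± 0.21 (adjusted p = 0.440), and the difference between the genotypes was not called (interaction -0.77 ± 0.29, adjusted p = 0.180). The direct comparison of miKO-tFCI with WT-tFCI gave -0.61 ± 0.21 and did not pass the test (adjusted p = 0.0815), but it passed in DESeq2 (adjusted p = 0.0352) and in 3 other alternatives of 22, among them the fit without miKO-tFCI replicate 3 (-0.88, adjusted p = 0.0225). Without miKO-tFCI replicate 1 it was -0.33 (adjusted p = 0.242). Within batch 1 that difference was -1.22 and within batch 2 it was -0.39. In miKO-Sham vs. WT-Sham *Kcnk6* was not called (log2 fold change 0.16 ± 0.21, 95% confidence interval -0.28 to 0.61, adjusted p = 0.645), although the libraries did not overlap, with a sign that turned when miKO-Sham replicates 1 and 2 were summed (-0.036).

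*Kcna3* (ENSMUSG00000047959, chr3:107036169-107038070, + strand), the gene of the voltage-gated Kv1.3, has a single exon and was lower in batch 1 than in batch 2 in every group. It had 1.56, 8.07 and 11.1 CPM in WT-Sham and 10.7, 12.9 and 15.8 CPM in miKO-Sham. After tFCI it had 4.19, 10.3 and 12.8 CPM in WT and 3.72, 10.7 and 14.1 CPM in miKO. WT-Sham replicate 1, with 13 counts, was the lowest of the 12 libraries, and WT-Sham replicate 3 lay inside the range of miKO-Sham. *Kcna3* was called higher in miKO-Sham than in WT-Sham (log2 fold change 1.18 ± 0.35, adjusted p = 0.0289). That difference was 2.60 within batch 1 and 0.58 within batch 2, and the call was lost without WT-Sham replicate 1 (0.83, adjusted p = 0.119), without miKO-Sham replicate 1 (0.73, adjusted p = 0.127), without WT-Sham replicate 2 (adjusted p = 0.0840), in batch 2 alone (0.57, adjusted p = 0.168) and with miKO-Sham replicates 1 and 2 summed (0.68, adjusted p = 0.149). It was also lost without the batch term (adjusted p = 0.382) and in a fit of the compared groups only (adjusted p = 0.0658). After tFCI the genotypes overlapped (0.03 ± 0.34, adjusted p = 0.968), with a 95% confidence interval from -0.70 to 0.76, and the interaction of -1.15 ± 0.49 was not called (adjusted p = 0.230).

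*Kcnn4* (ENSMUSG00000054342, chr7:24370263-24386690, + strand), which encodes the calcium-activated KCa3.1 known from reactive microglia, was the only member called higher after tFCI. It had 4.33, 3.47 and 3.80 CPM in WT-Sham and 0.833, 1.80 and 1.67 CPM in miKO-Sham. After tFCI it had 14.4, 5.54 and 6.82 CPM in WT and 27.7, 8.17 and 8.53 CPM in miKO. Every tFCI library lay above every Sham library, and every miKO-Sham library lay below every WT-Sham library. The counts behind these levels were few, at 31 to 37 in WT-Sham, 6 to 13 in miKO-Sham, 48 to 120 in WT-tFCI and 65 to 268 in miKO-tFCI. *Kcnn4* rose by 3.13 ± 0.45 on the log2 scale from miKO-Sham to miKO-tFCI (8.75-fold, adjusted p = 8.2e-05). The rise was 4.70 within batch 1 and 2.12 within batch 2. It was 2.23 in a fit of batch 2 alone (adjusted p = 0.00072), 2.60 without miKO-tFCI replicate 1 (adjusted p = 0.00040) and 2.49 without miKO-Sham replicate 1 (adjusted p = 0.00038). In WT the rise was 1.09 ± 0.39 (2.13-fold, adjusted p = 0.0400), at 1.68 within batch 1 and 0.72 within batch 2. The call in WT was lost when any of the 6 libraries compared was left out, with adjusted p from 0.0605 without WT-Sham replicate 3 to 0.197 without WT-Sham replicate 1, in which case the value was 0.79, and without WT-tFCI replicate 1 it was 0.91 (adjusted p = 0.161). It was also lost without the batch term (adjusted p = 0.0862) and in batch 2 alone (0.77, adjusted p = 0.0977). The level in miKO-Sham was below that in WT-Sham by -1.37 ± 0.46, which missed the threshold (adjusted p = 0.0530) although the groups did not overlap, and DESeq2 called it (adjusted p = 0.0266), as did the fits without WT-Sham replicate 1 (-1.64, adjusted p = 0.0348), without miKO-Sham replicate 2 (-1.72, adjusted p = 0.0426) and without miKO-tFCI replicate 1 (-1.40, adjusted p = 0.0243). Without miKO-Sham replicate 1 it was -0.78 (adjusted p = 0.240). The interaction, 2.04 ± 0.59, also missed the threshold (adjusted p = 0.0773) and was called by DESeq2 (adjusted p = 0.0233) and without WT-Sham replicate 1 (2.29, adjusted p = 0.0426), whereas it was 1.42 without miKO-Sham replicate 1 (adjusted p = 0.184). In miKO-tFCI vs. WT-tFCI the difference was 0.66 ± 0.37 and was not called (adjusted p = 0.275), and it was 0.09 without miKO-tFCI replicate 1 (adjusted p = 0.924).

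*Kcnj2* (ENSMUSG00000041695, chr11:111066164-111076821, + strand) is the gene of the inward rectifier Kir2.1 that holds the membrane potential negative. In the main analysis it was the only member called in the interaction of genotype and surgery. It had 15.6, 12.7 and 10.4 CPM in WT-Sham and 30.0, 29.7 and 14.6 CPM in miKO-Sham. After tFCI it had 17.0, 14.2 and 11.1 CPM in WT and 9.40, 10.6 and 5.68 CPM in miKO. Levels of miKO were mostly above WT after Sham, with replicate 3 inside the WT range, and were below every WT library after tFCI. *Kcnj2* rose by 0.94 ± 0.26 on the log2 scale in miKO-Sham vs. WT-Sham (1.92-fold, adjusted p = 0.0219), at 0.93 within batch 1 and 0.85 within batch 2. The call was lost without any of the 3 WT-Sham libraries (adjusted p from 0.0525 to 0.0941), without miKO-Sham replicate 1 (adjusted p = 0.0627) or 2 (0.67, adjusted p = 0.128), in batch 2 alone (0.93, adjusted p = 0.0847) and without the batch term (adjusted p = 0.0641). After tFCI the difference was -0.71 ± 0.27 and was not called (adjusted p = 0.116), with -0.84 within batch 1 and -0.68 within batch 2. With the replicate number as a block it was -0.74 and was called (adjusted p = 0.0341). The interaction was -1.65 ± 0.38 (adjusted p = 0.0255), at -1.77 within batch 1 and -1.53 within batch 2. It stayed between -1.94 and -1.38 in 21 alternatives but missed the threshold in 12 of them, among them the leaving out of 9 of the 12 libraries in turn (adjusted p from 0.0511 to 0.0845). It was called without WT-Sham replicate 1, miKO-Sham replicate 3 or miKO-tFCI replicate 2. In WT the change after tFCI was not called (0.13 ± 0.27, adjusted p = 0.726), whereas in miKO it fell by 1.52 ± 0.27 (adjusted p = 0.00048), by 1.65 within batch 1 and 1.40 within batch 2.

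*Hvcn1* (ENSMUSG00000064267, chr5:122206804-122242297, + strand), the gene of the proton channel Hv1, had 164, 210 and 232 CPM in WT-Sham and 369, 350 and 375 CPM in miKO-Sham. After tFCI it had 138, 158 and 152 CPM in WT and 108, 212 and 246 CPM in miKO. The 3 miKO-Sham libraries lay together above all 9 others, and the miKO-tFCI libraries were the most spread. *Hvcn1* rose by 0.88 ± 0.19 on the log2 scale in miKO-Sham vs. WT-Sham (1.84-fold, adjusted p = 0.0040), at 1.17 within batch 1 and 0.71 within batch 2. It fell by 1.01 ± 0.19 from miKO-Sham to miKO-tFCI (adjusted p = 0.00064), by 1.77 within batch 1 and 0.67 within batch 2. Both calls held in all 22 alternatives. In WT the change after tFCI was -0.42 ± 0.19 and was not called (adjusted p = 0.0878), although every WT-tFCI library lay below every WT-Sham library. After tFCI the genotypes overlapped (0.29 ± 0.19, adjusted p = 0.357), and the difference had opposite signs in the batches, -0.35 in batch 1 and 0.56 in batch 2. The interaction was -0.59 ± 0.26 (adjusted p = 0.258).

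**Figure D3:**
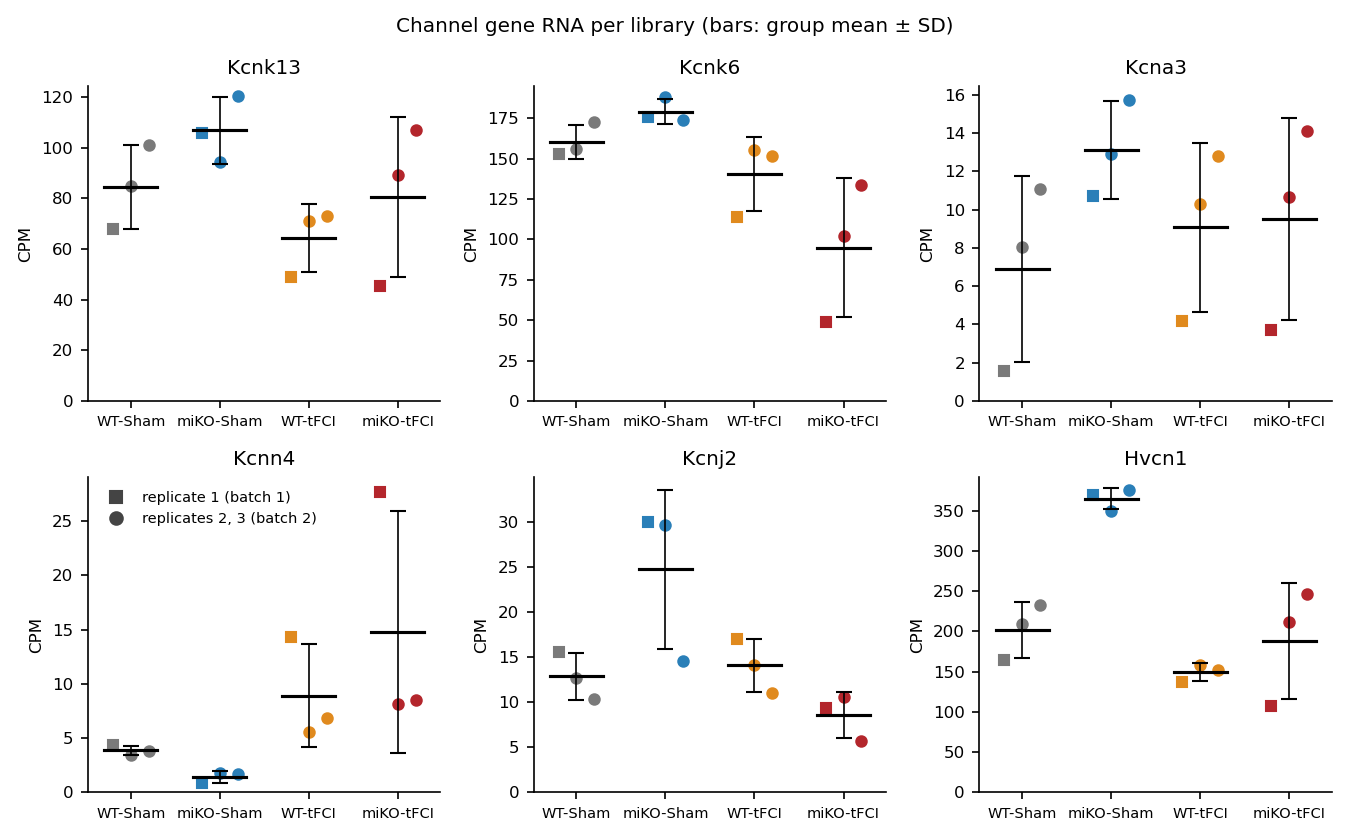
Level of each channel gene in the 12 libraries (CPM), with squares for replicate 1 (batch 1) and circles for replicates 2 and 3 (batch 2). Horizontal lines are group means and bars the SD of 3 libraries. *Kcnn4* is lowest in miKO-Sham (mean 1.43 CPM) and highest in miKO-tFCI (14.8 CPM), whereas *Kcnj2* and *Hvcn1* are highest in miKO-Sham (24.8 and 365 CPM).

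*Hvcn1* overlaps *Tctn1*, a gene of the ciliary transition zone that lies on the other strand (chr5:122237848-122264460, GRCm38). The exons of both share 1574 bases, which are 44.2% of the exon bases of *Hvcn1* and 19.0% of those of *Tctn1*, and 408 of them lie in the coding part of *Hvcn1*. The strand setting of the counting was not given in the sources used here, so that reads of the 2 genes cannot be told apart with certainty. *Tctn1* had 118, 162 and 171 CPM in WT-Sham, 298, 272 and 284 in miKO-Sham, 114, 119 and 138 in WT-tFCI and 95.0, 177 and 198 in miKO-tFCI. Its log2 fold change was 0.96 in miKO-Sham vs. WT-Sham (adjusted p = 0.0018) and -0.92 in miKO-tFCI vs. miKO-Sham (adjusted p = 0.0011), beside 0.88 and -1.01 for *Hvcn1*. Both genes moved together, and which of them the counts came from was not tested.

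**Figure D4:**
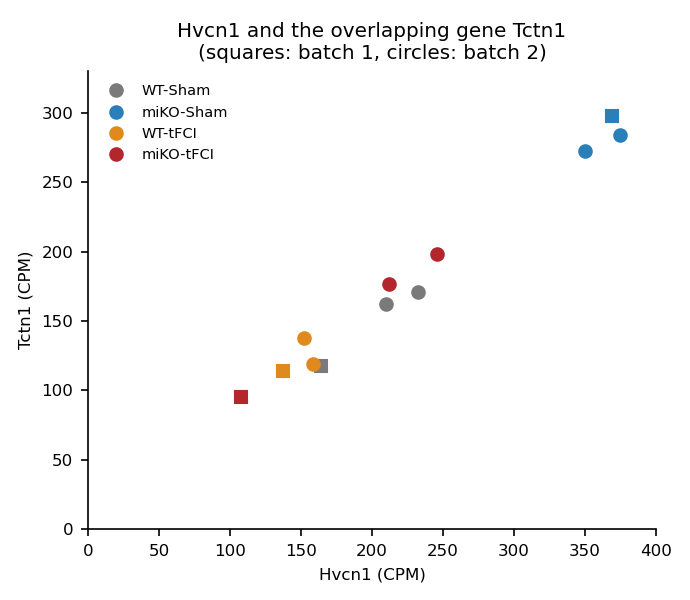
Level of *Hvcn1* (horizontal axis, CPM) and of the overlapping *Tctn1* (vertical axis, CPM) in the 12 libraries, colored by group, with squares for batch 1. The 3 miKO-Sham libraries lie at the upper right, with *Hvcn1* from 350 to 375 CPM and *Tctn1* from 272 to 298 CPM.

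The markers of microglia and of other cells moved with some of these levels. *Kcnk13*, *Kcnk6* and *Hvcn1* were lowest, and *Kcnn4* highest, in miKO-tFCI replicate 1, the library with the lowest summed level of microglia markers. The same library had the highest summed levels of 8 monocyte markers (930 CPM, against 357 to 645 in WT-tFCI and 11.0 to 108 in Sham), of 9 endothelial and mural markers (365 CPM, against 62.6 to 203 in WT-tFCI and 12.6 to 26.1 in Sham) and of 8 astrocyte markers (631 CPM, against 173 to 304 and 114 to 198). WT-tFCI replicate 1, the library with the next highest *Kcnn4* level, had the highest of these 3 sums within its group. Most of the monocyte sum in WT-tFCI was *Fn1* (mean 369 CPM, against 1.93 CPM in WT-Sham). In WT-tFCI vs. WT-Sham 3 of the 8 monocyte markers were called higher, and *Ccr2*, *Ly6c2* and *Plac8* were not called. From WT-tFCI to miKO-tFCI the mean of *Fn1* went to 206 CPM without a call. *Ccr2* (9.31 to 38.9 CPM) and *Chil3* (70.0 to 285 CPM) were the 2 of 8 called higher there. In miKO-tFCI the 10 neutrophil markers summed to 706 to 984 CPM, against 155 to 216 CPM in WT-tFCI, and the 8 markers of border-associated macrophages to 266 to 795 CPM, against 157 to 278 CPM. Replicate 1 of miKO-tFCI had the lowest neutrophil and border-associated macrophage sums of its group. In Sham the neutrophil sum was 50.8 to 845 CPM in WT, where replicate 1 was the highest, and 344 to 377 CPM in miKO, and the border-associated macrophage sum was 101 to 129 CPM and 58.5 to 315 CPM. The 8 B cell markers ran the other way, at 428 to 529 CPM in WT-Sham, 330 to 435 in miKO-Sham, 269 to 338 in WT-tFCI and 152 to 158 in miKO-tFCI. Between the Sham groups *Kcna3*, *Kcnj2* and *Hvcn1* were called. There the 9 neuron markers summed to 4.10 to 7.57 CPM in WT and 15.1 to 18.5 CPM in miKO, without overlap. Most of that gap was *Rbfox3* alone (mean 1.22 CPM in WT-Sham and 11.8 CPM in miKO-Sham). It was the only 1 of the 5 tested neuron markers that was called. The astrocyte markers summed to 182 to 198 CPM in WT and 114 to 138 CPM in miKO, without overlap, although 2 were called higher and 1 lower. The oligodendrocyte sum (10 markers) was 193 to 221 CPM in WT-Sham and 152 to 190 CPM in miKO-Sham, also without overlap, and the sum of 9 T and NK cell markers was 1.12 to 5.77 and 3.07 to 6.66 CPM. The highest sums of oligodendrocyte (336 CPM), neuron (21.5 CPM) and T and NK cell markers (16.5 CPM) were again those of miKO-tFCI replicate 1. The part of other cells in the levels of the channel genes was not tested, and in pooled RNA fewer cells of a type and less RNA per cell cannot be told apart. Without miKO-tFCI replicate 1, *Kcnk6* fell from miKO-Sham to miKO-tFCI by 0.71 (adjusted p = 0.0039).

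**Figure D5:**
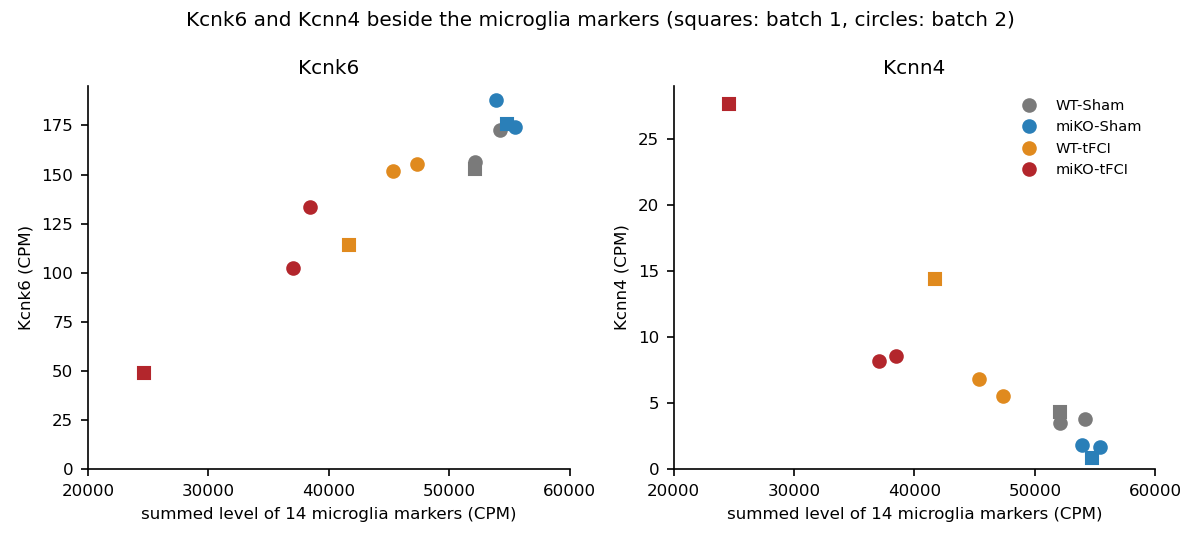
Level of *Kcnk6* (left) and *Kcnn4* (right) in CPM against the summed level of 14 microglia markers in each of the 12 libraries, with squares for batch 1. The red square is miKO-tFCI replicate 1, at 24622 CPM of markers, 48.8 CPM of *Kcnk6* and 27.7 CPM of *Kcnn4*.

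The promoters of *Kcnj2* and *Kcnn4* are shown because these members moved in opposite directions from miKO-Sham to miKO-tFCI. Sequences came from the RefSeq table for GRCm38.p6, which held 4 of the 6 members, and run from 250 bases before to 50 bases after the annotated start. Capitals mark every match to 5 motifs searched on both strands: the E-box CACGTG, the AP-1 site TGANTCA, the PU.1/ETS core GAGGAA, the cyclic AMP response element TGACGTCA and the GC box GGGCGG.
Kcnj2, chr11:111065914-111066213 (+): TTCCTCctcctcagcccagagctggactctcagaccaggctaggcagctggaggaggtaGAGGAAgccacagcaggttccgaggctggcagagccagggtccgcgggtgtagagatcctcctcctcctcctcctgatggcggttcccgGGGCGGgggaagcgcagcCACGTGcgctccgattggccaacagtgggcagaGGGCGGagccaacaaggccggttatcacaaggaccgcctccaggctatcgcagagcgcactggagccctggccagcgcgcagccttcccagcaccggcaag
Kcnn4, chr7:24370013-24370312 (+): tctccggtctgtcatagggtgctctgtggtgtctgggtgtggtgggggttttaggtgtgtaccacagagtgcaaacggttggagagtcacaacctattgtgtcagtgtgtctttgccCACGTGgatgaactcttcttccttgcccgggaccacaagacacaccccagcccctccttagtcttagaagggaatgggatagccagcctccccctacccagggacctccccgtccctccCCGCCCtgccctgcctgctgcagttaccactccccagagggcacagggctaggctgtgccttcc
*Kcnj2* held 1 E-box, 2 PU.1/ETS cores and 2 GC boxes, and *Kcnn4* held 1 E-box and 1 GC box. Over 32851 promoters of the same length, 7.2% held the E-box, 28.3% the PU.1/ETS core, 35.7% the GC box, 7.8% the AP-1 site and 1.8% the cyclic AMP response element. The *Kcnj2* window had 66.7% G and C bases and 18 CpG sites and that of *Kcnn4* 59.7% and 6, against medians of 52.7% and 7. A match describes the letters of the window and is no evidence of binding.

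Genes whose level was most like that of a member were ranked by Pearson's r of batch-adjusted log2 CPM over the 12 libraries, among 15741 genes. These libraries share their groups, so that r reflects the 4 group means as well as the spread within groups, and it is given as a description. *Kcnn4* was most like *Cnn2* (r = 0.986), *Samd9l* (0.984) and *Tmsb10* (0.984). *Kcnk6* was most like *Bcl10* (0.982), *Pnpla7* (0.965) and *Fbxo7* (0.962). *Kcnj2* was most like *Pip4k2b* (0.975), *Chst15* (0.949) and *4932442E05Rik* (0.938). *Kcnk13* was most like *Tbpl1* (0.964), *Vav1* (0.957) and *Zfp472* (0.955), and *Kcna3* most like *Gm44995* (0.940), *Tmem202* (0.926) and *Akt1* (0.920). For *Hvcn1* the first was the overlapping *Tctn1* (0.983), before *Lair1* (0.983) and *Ubash3b* (0.982). Among the members themselves, *Kcnk13* and *Hvcn1* had the highest r (0.920), and *Kcnn4* had a negative r with each of the other 5, from -0.87 with *Hvcn1* to -0.40 with *Kcna3*.

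Other potassium channels of the genome were mostly below the filter, with 20 of 73 pore genes tested. Counts called in this and the next lists stand beside the shares of all genes tested. After tFCI these were 20.9% higher and 11.7% lower in WT, and 21.9% and 13.9% in miKO. They were 8.58% and 6.8% in miKO-Sham vs. WT-Sham, 4.08% and 4.71% in miKO-tFCI vs. WT-tFCI, and 1.25% and 2.57% in the interaction. The counts describe the lists and are no test of them. In miKO-Sham vs. WT-Sham, 1 pore gene was higher and 4 were lower, and in miKO-tFCI vs. WT-tFCI 0 were higher and 3 lower. After tFCI, in either genotype, 5 were higher and 3 lower in each, and in the interaction 1 was lower. The most abundant per length were *Kcnj13*, *Tmem175*, *Kcnd1* and *Kcnk12*. *Kcnk12*, which encodes THIK-2, the nearest relative of the channel of *Kcnk13*, had 38.5, 25.8 and 24.2 CPM in WT-Sham and 18.7, 10.2 and 12.9 CPM in WT-tFCI, whereas the 6 miKO libraries held 1 to 14 counts each (0.126 to 1.45 CPM). Its log2 fold change was -5.27 in miKO-Sham vs. WT-Sham (adjusted p = 3e-06) and -4.20 in miKO-tFCI vs. WT-tFCI (adjusted p = 7.8e-05), beside 0.37 and 0.29 for *Kcnk13*. *Kcnd1*, the gene of the voltage-gated Kv4.1, was called lower in all 4 comparisons between groups, with -1.67 in miKO-Sham vs. WT-Sham, -1.52 in miKO-tFCI vs. WT-tFCI, and with -0.97 after tFCI in WT and -0.81 after tFCI in miKO. *Tmem175*, a lysosomal channel, was called in 0 comparisons (from -0.45 to 0.10). *Kcnj13*, known from the choroid plexus epithelium, was not called and had 44.9 and 121 CPM in replicate 1 of WT-tFCI and miKO-tFCI, against 2.31 to 17.2 CPM in the other 10 libraries.

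Of the auxiliary subunits of potassium channels, 9 of 21 were tested. In WT-tFCI vs. WT-Sham 3 were higher and 1 lower, in miKO-tFCI vs. miKO-Sham 3 were higher and 0 lower, in miKO-Sham vs. WT-Sham 0 were higher and 2 lower, and 0 were called in miKO-tFCI vs. WT-tFCI and in the interaction. *Kcnip3*, a calcium-binding partner of Kv4 channels such as Kv4.1, was lower in WT-tFCI than in WT-Sham (-0.91, adjusted p = 0.0232) and lower in miKO-Sham (-0.99, adjusted p = 0.0291). *Amigo1* was also lower in the latter (-1.41, adjusted p = 0.0346). *Kcne4*, whose product inhibits Kv1.3, was called in miKO-tFCI vs. miKO-Sham (4.11, adjusted p = 0.0037), from a mean of 0.352 CPM with 0 to 5 counts in a library to a mean of 7.47 CPM. *Kcne2*, like *Kcnj13* a gene of the choroid plexus, was called in WT-tFCI vs. WT-Sham (2.71, adjusted p = 0.0496), where replicate 1 had 23.9 CPM and the other WT-tFCI libraries 1.73 and 0.366 CPM.

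The sodium-potassium pump builds the gradient that these channels discharge. Of 14 genes of the pump and the cation-chloride cotransporters, 12 were tested. In WT-tFCI vs. WT-Sham 7 were higher and 0 lower (median log2 fold change 1.31, against 0.02 over all genes tested), and in miKO-tFCI vs. miKO-Sham 8 were higher and 2 lower (median 0.99, against 0.03). In miKO-Sham vs. WT-Sham 3 were higher and 1 lower, in miKO-tFCI vs. WT-tFCI 3 were higher and 2 lower, and in the interaction 2 were lower. *Fxyd5*, a regulator of the pump, rose by 4.79 in WT and 3.26 in miKO after tFCI, and its interaction of -1.53 was called (adjusted p = 0.0378). *Atp1b3* had 0.51 and 0.49, below the limit of 0.58, and *Slc12a9* was lower in miKO-tFCI than in WT-tFCI (-0.74, adjusted p = 0.0086). The astrocyte subunit *Atp1b2*, which the rule for named genes did not choose, was also called higher after tFCI in both genotypes (by 3.39 in WT and 3.74 in miKO), beside the astrocyte marker sums given above.

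Beside the proton channel, 21 of 22 genes of acid extrusion and proton-coupled transport were tested. In WT-tFCI vs. WT-Sham 10 were higher and 1 lower (median 1.04), in miKO-tFCI vs. miKO-Sham 8 were higher and 3 lower (median 0.71), and in each comparison between genotypes 1 was higher and 1 lower, with 0 in the interaction. *Slc16a3*, which exports lactate with protons, rose by 1.19 in WT and 0.95 in miKO after tFCI (adjusted p = 6.5e-06 and 5.8e-05), and its chaperone *Bsg* rose by 0.73 and 0.61 (adjusted p = 0.0042 and 0.0112). *Hvcn1* went the other way in miKO, as did *Slc9a9*, an endosomal sodium-proton exchanger (-0.97, adjusted p = 0.0011), and *Pacc1*, a proton-activated chloride channel (-0.66, adjusted p = 0.0314). In WT neither *Slc9a9* (-0.55) nor *Pacc1* (-0.57) passed the limits.

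All 23 partner genes were tested, among them purinergic receptors that act through the potassium channels, calcium-entry and calmodulin genes, the phagocyte NADPH oxidase and the NLRP3 inflammasome. In WT-tFCI vs. WT-Sham 7 were higher and 7 lower, and in miKO-tFCI vs. miKO-Sham 3 were higher and 10 lower (median -0.29). In miKO-Sham vs. WT-Sham 5 were higher and 0 lower, in miKO-tFCI vs. WT-tFCI 1 was higher and 2 lower, and in the interaction 0 were higher and 6 lower. *P2ry12*, the ADP receptor that signals through THIK-1, fell by 1.67 after tFCI in WT and by 1.65 in miKO, and *Gpr34* fell by 1.11 and 1.25. Both are also among the 14 microglia markers. *Calm2*, 1 of 3 genes for the calcium sensor of KCa3.1, fell by 0.58 in WT (adjusted p = 0.0071) and had -0.07 in miKO (adjusted p = 0.734). *Cyba*, a membrane subunit of the NADPH oxidase, was higher in miKO-Sham than in WT-Sham (1.09, adjusted p = 0.00076), as was *Hvcn1*. After tFCI the difference of *Cyba* between the genotypes was 0.36 (adjusted p = 0.232), and the interaction was not called (-0.73, adjusted p = 0.151). Among the 6 partner genes called lower in the interaction were *Cybb*, *Ncf1*, *Rac2*, *Nlrp3* and *Il1b*, which the rule for named genes did not choose. They were named after their values were seen.

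Of the other cation and chloride channels, 28 of 32 were tested, and after tFCI the WT comparison gave 7 higher and 5 lower genes and the miKO comparison 9 and 6. Between the genotypes 3 were higher and 5 lower in miKO-Sham, 1 was higher and 3 were lower in miKO-tFCI, and the interaction gave 1 in each direction. *Tmem63a*, a mechanically gated cation channel, was lower after tFCI in WT (-0.61, adjusted p = 0.0153) and in miKO (-0.96, adjusted p = 0.00077). *Clcn7*, the lysosomal chloride-proton exchanger, was higher in miKO-Sham than in WT-Sham (0.73, adjusted p = 0.0247). *Clic1* was called in 0 comparisons, and *Trpv2* had -0.50 in miKO-tFCI vs. miKO-Sham (adjusted p = 0.0085), below the limit on size.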

How the data were processed

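Reads of each library were trimmed, aligned and counted on genes by the authors. Their processing notes name FastQC 0.11.9, Trim Galore, HISAT2 2.2.1, SAMtools and HTSeq 1.99.2 with builds mm10 and GRCm38.p6, and the strand setting and the annotation are not given in the sources used here. The deposited values were raw counts per gene, without normalization, for 55401 identifiers, and the lines for reads on no gene (45.3% to 52.5% of counted reads) were left out of library sizes. Symbols, exon lengths and coordinates came from GENCODE M21 (GRCm38, 55141 identifiers matched).

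The analysis used edgeR 4.0.16 under R 4.3.3, and genes kept by its filterByExpr (16451) were normalized by TMM and fitted by the quasi-likelihood method with group and batch over 12 libraries. P-values were adjusted by Benjamini-Hochberg over all genes tested. CPM and RPKM used TMM library sizes. The fit was tested on simulated data. Whether the libraries of a group came from separate mice rests on the labels, and p-values measure the spread between these pooled libraries. Named genes were the members, the 4 genes with the highest mean RPKM among those tested in each of 6 lists of channels, pumps, transporters and partners, *Hdac3*, and the 3 genes most like each member among those with a mean CPM of at least 1. Members and lists were chosen with earlier results of these data known, and the lists were written from general knowledge. Same-numbered libraries were checked for pairing by the correlation of their deviations from the group means. All 3 pairs of WT-tFCI and miKO-tFCI were above 0.1 (0.67, 0.33 and 0.32). Each of the other comparisons had pairs below 0.1 (lowest over all groups -0.061). Batch was not removed from the deviations, and replicate 1 was batch 1 in every group, so this check cannot tell pairing from batch. The replicate number entered as a block only among the alternatives. Alternatives covered normalization, filter, DESeq2 1.42.0, covariates, samples and pairing. Some items that these rules chose are not reported here.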

Additional observations from a re-analysis of the deposited data

Results flagged for a closer look

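*Kcnj2* was singled out because its genotype effect differed between the surgeries by a test of the difference itself. The log2 fold change of miKO against WT was -0.71 after tFCI and 0.94 after Sham, a difference of -1.65 (interaction in edgeR, adjusted p = 0.0255, 95% confidence interval -2.47 to -0.84). The difference had the same sign in batch 1 (-1.77) and in batch 2 (-1.53). The call was lost in 12 of 21 alternatives, with values from -1.94 to -1.38 over all of them. Among the 12 were the leaving out of 9 of the 12 libraries in turn, the fit without the batch term (adjusted p = 0.0822), batch 2 alone (adjusted p = 0.107) and miKO-Sham replicates 1 and 2 summed (adjusted p = 0.0532). Groups of 3 libraries were too small for the test of a single library that stands apart from its group.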

How the results depend on the processing

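Of 649 values of the members under the alternatives, 586 kept their direction and their side of the threshold, 34 lost the call, 18 gained it and 11 turned sign, and the cause was not tested. *Kcnk6*, *Kcnn4*, *Kcnj2* and *Hvcn1* in miKO-tFCI vs. miKO-Sham and *Hvcn1* in miKO-Sham vs. WT-Sham were called under every alternative in which they were tested (*Kcnn4* fell under the filter of at least 10 counts in every library). Without a filter on low counts, 2193 genes and 2 members were called in miKO-tFCI vs. WT-tFCI (main analysis 1446 and 0) and 1272 genes and 3 members in the interaction (629 and 1). With at least 10 counts in every library, 0 members were called in WT-tFCI vs. WT-Sham (main 1) and 3744 genes in miKO-tFCI vs. miKO-Sham (5887), since fewer genes were tested. DESeq2 called 1 member in miKO-tFCI vs. WT-tFCI, and 1004 genes and 2 members in the interaction. Without the batch term, 0 members were called in WT-tFCI vs. WT-Sham, 701 genes (213 higher and 488 lower, against 671 and 775) in miKO-tFCI vs. WT-tFCI, 1 member in miKO-Sham vs. WT-Sham (main 3), and 303 genes and 0 members in the interaction. With only the groups compared in the fit, 2535 genes (1542 higher and 993 lower) and 1 member were called in miKO-tFCI vs. WT-tFCI. In batch 2 alone, 0 members were called in WT-tFCI vs. WT-Sham, 1 in miKO-Sham vs. WT-Sham and 0 in the interaction. With miKO-Sham replicates 1 and 2 summed, an alternative chosen after seeing the data, 417 genes and 0 members were called in the interaction.

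Leaving out each library in turn gave 0 to 1 members in WT-tFCI vs. WT-Sham, 616 to 1667 genes and 0 to 1 members in miKO-tFCI vs. WT-tFCI, 1 to 4 members in miKO-Sham vs. WT-Sham, and 281 to 883 genes and 0 to 2 members in the interaction. The values that turned sign were small. They were *Kcna3* in miKO-tFCI vs. WT-tFCI (-0.00066 without a filter, and -0.16 to 0.13 with a library left out, of which -0.03, -0.06 and -0.16 were below 0), *Kcnk6* in miKO-Sham vs. WT-Sham (-0.027 to 0.32 with a library left out, -0.027 without miKO-Sham replicate 1 and -0.036 with replicates 1 and 2 summed), *Kcnj2* in WT-tFCI vs. WT-Sham (-0.012 to 0.18 with a library left out, the lowest without WT-tFCI replicate 2), and the interaction of *Kcnk13* (0.20 in batch 2 alone, 0.098 with replicates summed, and -0.26 to 0.15 with a library left out, with 0.15 without miKO-Sham replicate 1 and 0.14 without miKO-tFCI replicate 1).

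Over all pairs of groups, 8 of 12 libraries were closest to their own number, with batch not removed. With the replicate block, 1429 genes and 1 member (*Kcnj2*) were called in miKO-tFCI vs. WT-tFCI, and no other call of a member changed. In that comparison same-numbered libraries had the highest correlations, which pairing and batch cannot be told apart in. Depth limited *Kcnn4* and *Kcna3* most, with 6 and 13 counts in their lowest library.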
